A study of Homo sapiens with 12 samples.

Results

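The 18 genes described here were expressed in HEK293T cells and were low in R1, a clone of HEK293T that grows without methionine. They were chosen by level. A gene was kept where its mean over the 6 HEK293T libraries was at least 5 CPM (counts per 1000000 counts of the library), and where the mean R1 level was at most 25% of the mean HEK293T level in each of 2 media. Genes named SLC or MAGE, histone genes and entries without a symbol were left out, which removed 1 gene that met both limits, SLC7A3. The table holds 23500 entries, of which 10306 symbols reached 5 CPM in HEK293T, so the 18 genes were 0.175% of the expressed symbols. All 18 are protein-coding.

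RNA sequencing was done on 4 groups of 3 libraries after 12 h in medium. HEK293T is a human embryonic kidney line transformed with adenoviral and SV40 genes and depends on methionine for growth. R1 is 1 clone selected from HEK293T for growth with homocysteine, the precursor of methionine, in its place, so a feature of methionine independence and a feature of this clone cannot be told apart. Each line was grown either in medium with methionine (+Met) or in methionine-free medium supplied with homocysteine (−Met+Hcy), and the labels give HEK293T as the cell line of all 12 libraries and R1 only in the sample names. The libraries held 12664158 to 18771349 counts, at which 3 counts correspond to 0.1598 to 0.2369 CPM. No source says that the 3 libraries of a group came from separate cultures, so p-values measure the spread between libraries, which may be technical.

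The label was compared with marker genes. Of 9 genes listed for HEK293T, 7 were at 5 CPM or more in all 6 HEK293T libraries and 7 or 8 in the R1 libraries. VIM, an intermediate filament gene, averaged 518 CPM in HEK293T and 669 CPM over 5 R1 libraries. The kidney factors PAX2 and LHX1, also listed, were low in HEK293T, at 0.628 and 0.59 CPM, and higher over the 5 R1 libraries, at 5.3 and 3.54 CPM, and for neither did the libraries of the lines overlap. The basal keratins KRT5 and KRT14, which mark the breast line that the study also used, had 0 counts in all 12 libraries. The leukocyte gene LYZ also had 0 counts in all 12. Of the 8 genes listed for the breast line, only EGFR was expressed, and it was higher in R1. It ranged from 2.57 to 5.68 CPM in HEK293T and from 8.2 to 19.1 CPM in R1. The others had at most 0.125 CPM in any library.

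Methionine is both a protein building block and the source of the methyl donor S-adenosylmethionine, and many tumour lines stop dividing when homocysteine replaces it although they can make methionine from it. The 18 genes do not form a single pathway. They include transcription regulators (MYC, SNAI2, ZNF582, ZNF329, ZNF177, ZNF256), a stress regulator (NUPR1), secreted and surface proteins of signalling and neuronal adhesion (HHIP, NELL2, TENM1, ADGRL3, KCNQ5), cytoskeletal and lipid-signalling proteins (DIAPH2, PPP1R14A, ANXA1, PLA2G4A) and members of X-linked families (BEX5, ARMCX5).

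One library stood apart before any gene was considered. In R1 −Met+Hcy replicate 3, 12.1% of the 10306 expressed symbols were at or below 25% of the HEK293T −Met+Hcy mean, against 0.194% to 0.931% in the other 5 R1 libraries. The selection did not use this library, and 16 of the 18 genes were also at or below 25% in it. SNAI2, at 25.2%, and ZNF582, at 53.4%, were above. The common dispersion of the counts, a measure of the spread within groups, was 0.109 with the library and 0.0349 without it, so the calls of the medium response are also given without it.

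**Figure D1:**
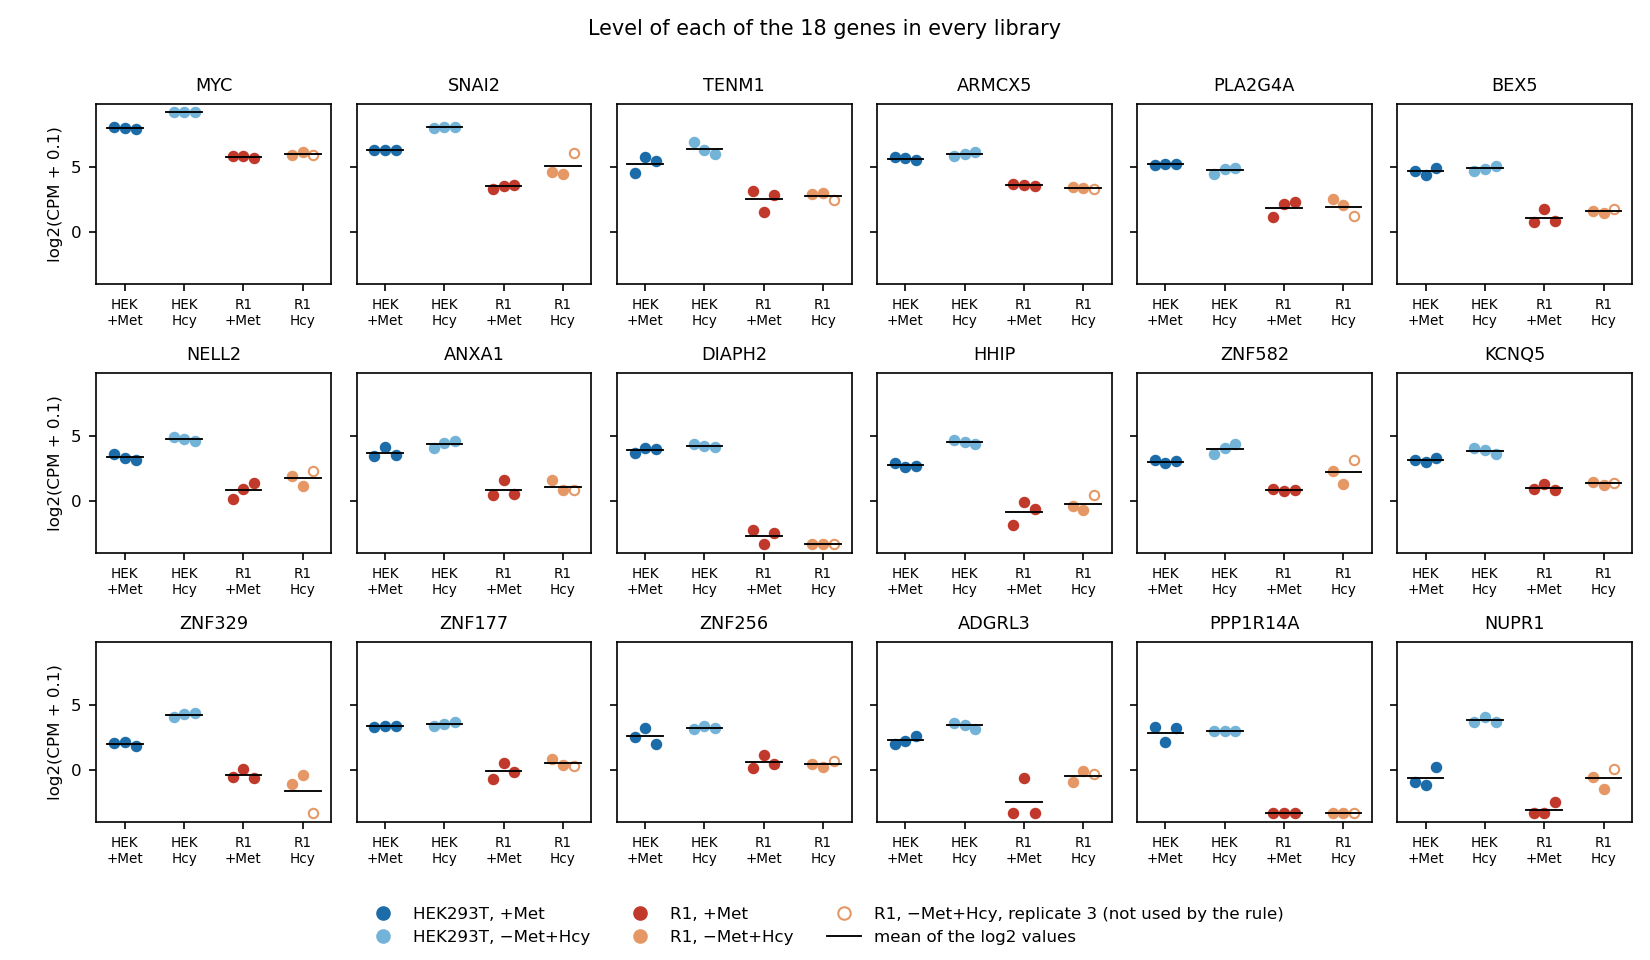
Level of each of the 18 genes in each of the 12 libraries, as log2(CPM + 0.1). Filled points are libraries used for the selection, the open point is R1 −Met+Hcy replicate 3, and the short lines are means of the log2 values over 3 libraries. HEK293T and R1 libraries do not overlap except for ZNF582, through the open point, and NUPR1, whose HEK293T +Met libraries are low.

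The R1 and HEK293T levels chose the genes and are therefore given as a description, without a test. Among the transcription regulators, MYC, which pairs with MAX to drive growth genes, had 269, 247 and 244 CPM in HEK293T +Met and 581, 591 and 578 CPM in HEK293T −Met+Hcy. In R1 it had 56.7, 55.5 and 52.1 CPM in +Met and 60, 69.3 and 60.8 CPM in −Met+Hcy. The R1 mean was thus 21.6% of HEK293T in +Met and 11.1% in −Met+Hcy, and the R1 libraries lay within a narrow band in both media.

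SNAI2, a zinc finger repressor also called Slug that represses E-cadherin, had 79.4, 78.8 and 77.6 CPM in HEK293T +Met and 253, 263 and 263 CPM in HEK293T −Met+Hcy. In R1 it had 9.92, 11.7 and 11.9 CPM in +Met, and 24.5, 21.5 and 65.5 CPM in −Met+Hcy. The last of these values, from the library that stood apart, was 2.84 times the mean of the other 2 libraries of its group, yet it was still below every HEK293T library.

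The 4 ZNF genes encode proteins with tandem C2H2 zinc fingers, a class whose many members act mostly as DNA-binding repressors. ZNF329 had 4.01, 4.38 and 3.43 CPM in HEK293T +Met, 16.8, 19.5 and 20.8 CPM in HEK293T −Met+Hcy, 0.58, 0.978 and 0.553 CPM in R1 +Met and 0.364, 0.659 and 0 CPM in R1 −Met+Hcy. Its R1 level was 17.9% of HEK293T in +Met and 2.69% in −Met+Hcy. ZNF177 ranged from 9.76 to 12.6 CPM in HEK293T and from 0.522 to 1.68 CPM in R1. ZNF256 ranged from 3.92 to 10.1 CPM and from 1.04 to 2.12 CPM, respectively.

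ZNF582 was the gene of the 4 whose lines overlapped. Its HEK293T libraries spanned 7.26 to 20.2 CPM, and its R1 libraries 1.8, 1.63 and 1.66 CPM in +Met and 4.74, 2.37 and 8.79 CPM in −Met+Hcy, the highest again from the library that stood apart. ZNF177 shares sequence with the read-through gene ZNF559-ZNF177 on the same strand, which had 26 to 164 counts in HEK293T and 15 to 59 in R1, so that the division of reads between them is uncertain. The zinc finger genes are a multigene family, in which related copies can share reads.

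NUPR1, a small nuclear protein induced by stress and by amino acid shortage, reached the level of 5 CPM only through the HEK293T −Met+Hcy libraries. Its HEK293T counts were 7, 5 and 18 in +Met and 185, 278 and 192 in −Met+Hcy, and its R1 counts were 0, 0 and 1 in +Met and 8, 4 and 18 in −Met+Hcy. With 1 count over 3 R1 libraries in +Met, the HEK293T over R1 ratio there was 30.9, with a 95% counting interval of 5.14 to 1260. NUPR1 was therefore near the floor of detection in R1 +Met, and its R1 −Met+Hcy libraries, at 0.264 to 0.959 CPM, overlapped the HEK293T +Met libraries, at 0.342 to 1.1 CPM.

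Of the signalling and surface proteins, HHIP binds Hedgehog ligands and blocks their action, and it is itself induced by Hedgehog signalling. It had 7.45, 6.03 and 6.3 CPM in HEK293T +Met, 25, 22.3 and 20.7 CPM in HEK293T −Met+Hcy, and 0.174 to 1.28 CPM in the 6 R1 libraries. The R1 level was 8.07% of HEK293T in +Met and 2.61% in −Met+Hcy. NELL2, a secreted glycoprotein that signals through ROBO receptors in axon guidance, had 12.1, 9.8 and 8.63 CPM in HEK293T +Met, 30.2, 26.3 and 24.5 CPM in HEK293T −Met+Hcy and 0.986 to 4.74 CPM in R1. No R1 library reached the lowest HEK293T library for either gene.

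TENM1, a teneurin, and ADGRL3, a latrophilin, belong to families of cell surface proteins that bind each other across synapses. TENM1 had 23.1, 54 and 43.5 CPM in HEK293T +Met and 120, 76.6 and 61.5 CPM in HEK293T −Met+Hcy, a wide spread within each group, against 2.77 to 8.58 CPM in R1. ADGRL3 had 3.88, 4.45 and 6.06 CPM in HEK293T +Met and 12.3, 11.1 and 8.69 CPM in HEK293T −Met+Hcy, and its R1 counts were 0, 10 and 0 in +Met and 6, 13 and 13 in −Met+Hcy. KCNQ5, a subunit of the voltage-gated potassium channels that carry the M current, ranged from 7.95 to 16.5 CPM in HEK293T and from 1.66 to 2.62 CPM in R1. The lines did not overlap for any of these 3 genes.

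Among the cytoskeletal and lipid-signalling genes, DIAPH2 and PPP1R14A were nearly or wholly without counts in R1. DIAPH2, a formin that nucleates actin filaments, had 207, 239 and 259 counts in HEK293T +Met and 293, 311 and 261 in HEK293T −Met+Hcy, but 2, 0 and 1 in R1 +Met and 0 in each R1 −Met+Hcy library. The HEK293T over R1 ratio in +Met was 242, with a 95% counting interval of 82.5 to 1176, and in −Met+Hcy HEK293T was at least 89.7-fold higher, taking 3 counts in each of the 2 R1 libraries used as the floor. PPP1R14A, an inhibitor of myosin phosphatase, had 152, 62 and 150 counts in HEK293T +Met, 109, 131 and 120 in HEK293T −Met+Hcy and 0 in all 6 R1 libraries. HEK293T was at least 40-fold higher in +Met and at least 37.2-fold higher in −Met+Hcy, with 3 counts in each R1 library as the floor.

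The genes that overlap them also had fewer counts in R1. RPA4, which lies within DIAPH2 on the same strand, had 10 to 20 counts in HEK293T and 0 to 3 in R1. SPINT2, on the opposite strand at PPP1R14A, had 33 to 105 counts in HEK293T and 0 to 23 in R1. Counts were assigned to transcript sequences, so an overlap matters only where transcripts share sequence. Whether these pairs share any, and whether the counting used strand, was not examined here, and the counts of such pairs are uncertain to that extent. Fewer expressing cells and less RNA per cell cannot be told apart either in these bulk libraries.

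ANXA1, a calcium-dependent phospholipid-binding protein, had 10.7, 17.7 and 11.3 CPM in HEK293T +Met, 16.9, 22 and 24.7 CPM in HEK293T −Met+Hcy and 1.28 to 2.92 CPM in R1. PLA2G4A, the cytosolic phospholipase that releases arachidonic acid from membranes, had 35.1, 37.9 and 37 CPM in HEK293T +Met, 22.2, 27.7 and 29.8 CPM in HEK293T −Met+Hcy and 2.09 to 5.69 CPM in R1. PLA2G4A differed from most of the 18 genes in that its HEK293T −Met+Hcy libraries were all below its +Met libraries. For both genes every R1 library was below every HEK293T library.

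BEX5 and ARMCX5 belong to gene families that expanded on the X chromosome of placental mammals. BEX5 ranged from 20.5 to 33.8 CPM in HEK293T and from 1.57 to 3.36 CPM in R1. ARMCX5 ranged from 45.2 to 71.1 CPM in HEK293T and from 9.96 to 12.6 CPM in R1. ARMCX5 was the gene nearest the limit, at 24.5% of HEK293T in +Met, followed by ZNF256 at 23.3% and KCNQ5 at 22.2%. Just outside were TMSB15B at 25.8%, TIMM8A at 26% and DTNA at 27.4%. By level, NUPR1 at 7.3, PPP1R14A at 7.7 and ADGRL3 at 7.75 CPM were the lowest inside, and ZNF492 at 4.65, LDB2 at 3.65 and PNMA3 at 3.39 CPM met the ratio but not the level.

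**Figure D2:**
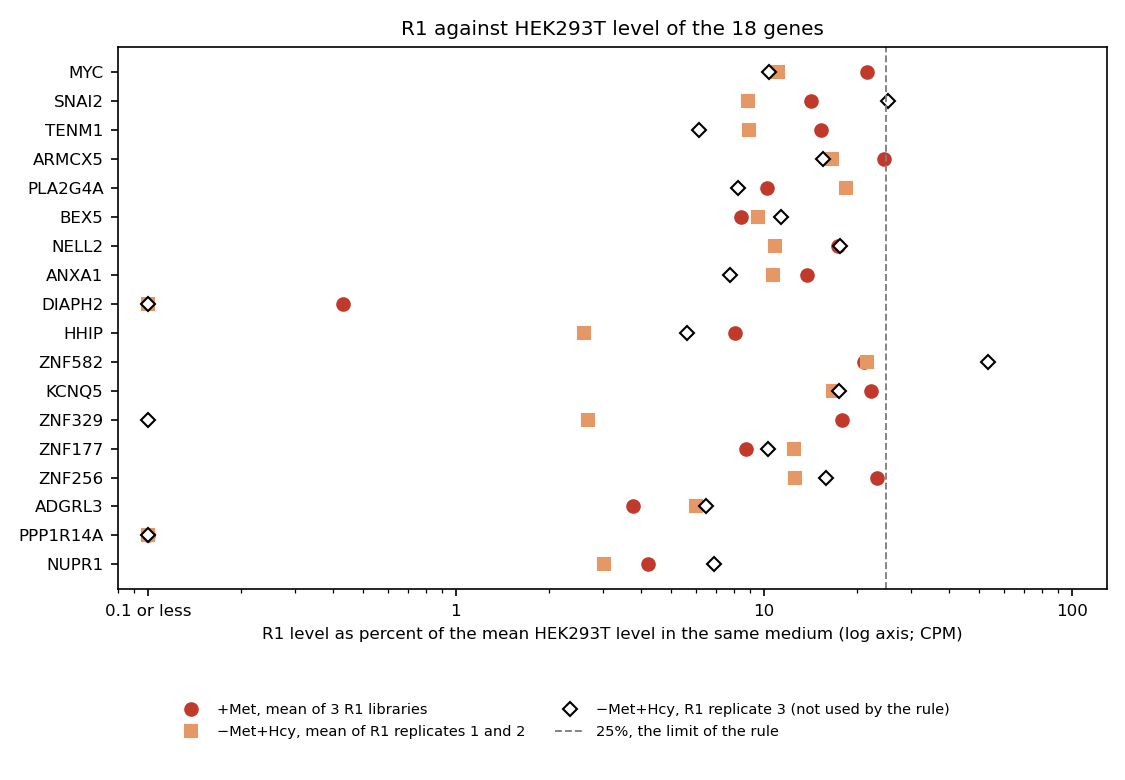
R1 level of each gene as a percentage of the mean HEK293T level in the same medium, on a log axis, with values of 0.1% or less drawn at the left. Circles are the means of 3 +Met libraries, squares the means of the 2 −Met+Hcy libraries used for the selection and diamonds the library that was not used; the dashed line marks 25%. DIAPH2 and PPP1R14A lie at the left, and ZNF582 is the gene whose unused library lies far to the right of the line.

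Relatives of the 18 genes were examined in 13 families, a list made after the genes were known. In the MYC network none of 8 expressed relatives, MAX, MNT, MGA and MLX among them, differed by 1 or more on the log2 scale between R1 and HEK293T. MAX had 42.8 CPM in HEK293T and 39.4 CPM in R1. MYCN, the neural relative of MYC, was below 5 CPM in both lines, at 0.236 and 1.71 CPM. In this and the following paragraphs the log2 ratio is that of R1 over HEK293T after adding 0.1 CPM to each mean, and expressed relatives reached 5 CPM in either line.

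Around SNAI2, the other factors of epithelial-mesenchymal transition ZEB1, ZEB2 and TWIST1 had log2 ratios of 0.16, 0.46 and 0.16. N-cadherin (CDH2) was higher in R1, with 90.6 against 28.6 CPM and a log2 ratio of 1.66. In the Hedgehog pathway HHIP was low in R1 while the transcription factors GLI1, GLI2 and GLI3 and the co-receptor CDON were higher there, with log2 ratios of 1.47, 1.67, 1.78 and 1.27. Of the 9 expressed relatives in this family, these 4 were at 1 or above and 0 were at -1 or below. The receptor PTCH1, which like HHIP restrains the pathway, had a log2 ratio of 0.67. SMO, SUFU, BOC and GAS1 had log2 ratios of 0.41, 0.56, -0.01 and 0.46. The 3 ligand genes were at or near the floor in both lines, with means of at most 0.22 CPM.

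For the adhesion proteins, TENM4 had a log2 ratio of 1.99 where TENM1 was low, ADGRL1 and ADGRL2 had ratios of -0.01 and 0.29, and of their partners FLRT3 had 25.9 CPM in HEK293T and 25.1 CPM in R1, with a log2 ratio of -0.04. FLRT1 and FLRT2 were below the level of the expressed set, FLRT1 with a log2 ratio of 1.05 and FLRT2 with 2.29 CPM in HEK293T and 0.193 CPM in R1. The receptors ROBO1, ROBO2 and ROBO3 had log2 ratios of 0.61, 0.99 and 1.02, in contrast to their ligand NELL2. None of 8 expressed formins other than DIAPH2 was at -1 or below, and FHOD3 was at 1.68. PPP1R14B and PPP1R14C, relatives of PPP1R14A, had log2 ratios of -0.11 and 1.09.

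Of the 13 families, that of the BEX and TCEAL genes on the X chromosome held the most low relatives. Of its 8 expressed genes besides BEX5, BEX4, TCEAL1 and TCEAL8 had log2 ratios of -1.42, -1.49 and -1.31, and BEX1 had 1.26. ARMCX2, with 1.75 CPM in HEK293T, had no counts in R1, and ARMCX4 had 2.73 CPM in HEK293T and 0.0158 CPM in R1, but both were below the level required here. ARMCX3 and ARMCX6 were at -0.35 and -0.56.

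Larger groups were read from 21 lists of gene symbols, made with earlier results of these data known. Of the 18 genes, 9 were in a list. The zinc finger list held 394 expressed genes, of which 4 were selected and 79 were at a log2 ratio of -1 or below, against 5 at 1 or above. These ratios pool the media, and taken apart 29 of the 394 were at -1 or below in +Met and 126 in −Met+Hcy. With the media pooled, 3.27% of all expressed symbols were at -1 or below and 6.67% at 1 or above. The median over all expressed symbols was itself lower in −Met+Hcy, at 0.03 against 0.30 in +Met. Shares of all expressed symbols were not taken by medium, so counts by medium in this paragraph have no such background. The amino acid response list held 30 expressed genes with 1 selected, NUPR1, and 12 at -1 or below, among them ATF3 at -2.70, CHAC1 at -2.85, CEBPG at -1.95 and ASNS at -1.70. Most of these low ratios were found in −Met+Hcy. In +Met, 2 of the 30 were at -1 or below, ATF3 and NUPR1, and in −Met+Hcy 13 were. CHAC1 had 5.75 CPM in HEK293T and 4.24 CPM in R1 in +Met, and 181 against 25.8 CPM in −Met+Hcy. By contrast the 58 extracellular matrix genes had none selected, 29 at 1 or above and 3 at -1 or below. The 25 PP2A genes had none selected, 3 at 1 or above and 1 at -1 or below.

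Of the 18 genes, 9 lay on the X chromosome and chromosome 19. The X chromosome held 4 of its 374 expressed symbols (1.07%), namely TENM1, DIAPH2, BEX5 and ARMCX5, and chromosome 19 held 5 of 701 (0.713%), namely ZNF177, PPP1R14A, ZNF582, ZNF256 and ZNF329, against 0.175% of all expressed symbols. Chromosomes 4 and 8 held 2 each and chromosomes 1, 6, 9, 12 and 16 held 1 each. In GRCh38 coordinates, BEX5 (chrX:102153708-102155977, minus strand) and ARMCX5 (chrX:102599168-102604159, plus strand) started 443 kb apart, with 1 expressed gene, TMSB15A, between them. ZNF256 (chr19:57940833-57947706, minus strand) and ZNF329 (chr19:58126248-58155110, minus strand) started 207 kb apart with ZNF606 between them. No 2 of the 18 genes were immediate neighbours among expressed genes.

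The 3 nearest expressed genes on each side of the 18 comprised 98 other genes, of which 17 (17.3%) had a log2 ratio of -1 or below, against 3.07% of all other expressed genes. Their median was -0.17, against 0.14. The low neighbours were unevenly placed. Around ZNF177, the genes ZNF266, ZNF426 and ZNF121 had log2 ratios of -1.42, -1.62 and -1.85, and beside ZNF582 the genes ZNF583, ZFP28 and ZNF470 had -1.80, -1.34 and -1.82. TMSB15A, between BEX5 and ARMCX5, had -1.67. By contrast the 6 neighbours of MYC, of NELL2 and of NUPR1 lay between -0.90 and 0.68. DIAPH2, which spans 920 kb, had TSPAN6 at -1.37 and NAP1L3 at -1.04 as the nearest expressed genes. SMARCA1, the next expressed gene after TENM1, was higher in R1, with 229 against 32.9 CPM. Distances between starts differed widely. They were 3955 kb for TSPAN6, -3011 kb for NAP1L3 and 4319 kb for SMARCA1. MYC had TRIB1 at -2305 kb and CYRIB at 2282 kb. By contrast ZNF583 lay 4.43 kb from ZNF582, ZNF121 221 kb from ZNF177 and SGF29 14.9 kb from NUPR1. Neighbours in this order were thus not always close.

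**Figure D3:**
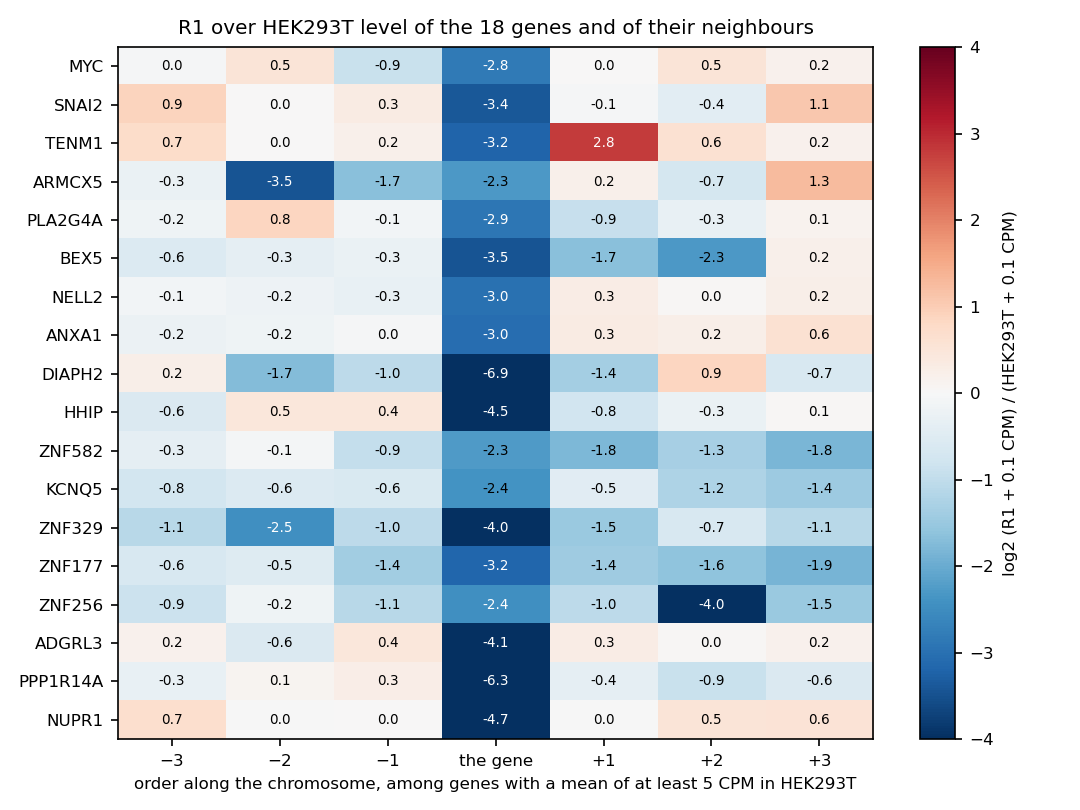
Log2 ratio of R1 over HEK293T (means of 5 and 6 libraries, 0.1 CPM added) for each of the 18 genes, in the middle column, and for the 3 expressed genes before and after it on its chromosome. The neighbours of the chromosome 19 zinc finger genes are mostly blue, while those of MYC, NELL2, ANXA1, ADGRL3 and NUPR1 lie between -0.90 (TRIB1, beside MYC) and 0.68 (KATNIP, near NUPR1).

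Zinc finger genes outside the 18 were read separately on chromosome 19, which holds large clusters of them. The 162 such genes on chromosome 19 had a median log2 ratio of -0.85 and 63 (38.9%) were at -1 or below, with 0 at 1 or above. The 225 zinc finger genes on other chromosomes had a median of -0.03 and 12 (5.33%) at -1 or below. The 534 other genes of chromosome 19 had a median of -0.21 and 39 (7.3%) at -1 or below. In the separate R1 libraries the median of the 162 genes against the HEK293T mean of the same medium was -0.48, -0.42 and -0.44 in +Met and -1.13, -1.16 and -0.93 in −Met+Hcy, against 0.23 to 0.33 and -0.25 to 0.04 for all other expressed genes. For the zinc finger genes on other chromosomes it lay between 0.17 and 0.36 in the +Met libraries and between -0.33 and -0.24 in the −Met+Hcy libraries, so zinc finger genes outside chromosome 19 were also lower against HEK293T in −Met+Hcy than in +Met. In R1 −Met+Hcy replicate 3 the other chromosome 19 genes were lower still, at -1.69, against -0.31 and -0.23 in the other 2 libraries of the group.

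**Figure D4:**
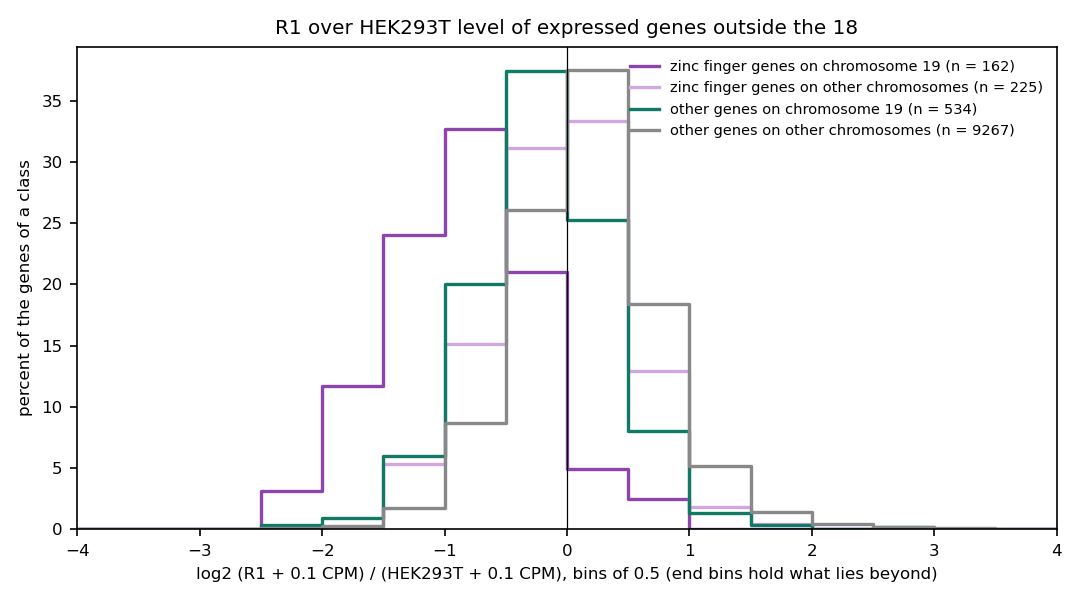
Distribution of the log2 ratio of R1 over HEK293T for expressed genes other than the 18, in bins of 0.5, as a percentage of each class. The 162 zinc finger genes of chromosome 19 are shifted to the left of the other 3 classes.

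On the X chromosome the window from 100 to 110 Mb, which holds BEX5 and ARMCX5, had 44 other expressed genes with a median log2 ratio of -0.60, 14 of them at -1 or below and 3 at 1 or above. Windows without any of the 18 genes also had low medians, -0.55 from 70 to 80 Mb and -0.75 from 80 to 90 Mb. Their shares of genes at -1 or below were smaller, with 5 of 29 and 2 of 10. The 13 genes of the window from 120 to 130 Mb around TENM1 had a median of 0.18, with 0 at -1 or below and 2 at 1 or above. Over the X chromosome without the 4 genes the median was 0.08. Normalisation moved these medians. The median over expressed symbols of R1 against HEK293T was 0.30 in +Met and 0.03 in −Met+Hcy in CPM, and -0.05 and -0.07 after scaling by trimmed means (TMM), so the log2 ratios above are higher than TMM-scaled ones, most of all in +Met.

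Promoter sequences were read for what the genes might share beyond the selection, and a few are printed to show how far their sequences differ. RefSeq sequences (GRCh38.p14) from 250 bases before to 50 bases after the start were found for 14 of the 18 genes; MYC, SNAI2, NELL2 and NUPR1 were not among them. The 5 shown are those of the 2 genes with the fewest R1 counts (DIAPH2, chrX:96684592-96684891, plus strand; PPP1R14A, chr19:38256325-38256624, minus strand), of 2 genes called in HEK293T below (ZNF329, chr19:58150740-58151039, minus strand; HHIP, chr4:144645906-144646205, plus strand) and of the gene with no CG dinucleotide (ANXA1, chr9:73151615-73151914, plus strand). Each is written 5′ to 3′ in the direction of transcription, and capitals mark CG dinucleotides, the sites of DNA methylation in mammals.
DIAPH2: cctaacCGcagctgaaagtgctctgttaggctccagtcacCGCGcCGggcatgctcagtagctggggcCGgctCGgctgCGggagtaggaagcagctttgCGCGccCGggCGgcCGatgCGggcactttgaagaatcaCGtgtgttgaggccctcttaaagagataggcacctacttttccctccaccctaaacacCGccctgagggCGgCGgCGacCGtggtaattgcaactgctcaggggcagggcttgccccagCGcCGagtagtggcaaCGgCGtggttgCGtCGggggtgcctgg
PPP1R14A: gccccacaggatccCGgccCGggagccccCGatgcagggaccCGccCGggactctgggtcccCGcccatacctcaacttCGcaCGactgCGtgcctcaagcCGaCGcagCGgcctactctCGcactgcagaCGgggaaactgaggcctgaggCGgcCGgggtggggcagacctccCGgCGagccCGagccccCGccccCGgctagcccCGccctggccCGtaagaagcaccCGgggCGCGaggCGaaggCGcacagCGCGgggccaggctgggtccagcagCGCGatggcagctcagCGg
ZNF329: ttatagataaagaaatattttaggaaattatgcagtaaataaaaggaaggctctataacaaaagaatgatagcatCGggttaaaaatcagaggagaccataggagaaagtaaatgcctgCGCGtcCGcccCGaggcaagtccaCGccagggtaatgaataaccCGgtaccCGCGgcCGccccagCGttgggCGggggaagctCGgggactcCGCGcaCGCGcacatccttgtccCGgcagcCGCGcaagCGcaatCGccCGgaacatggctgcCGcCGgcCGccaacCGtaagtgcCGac
HHIP: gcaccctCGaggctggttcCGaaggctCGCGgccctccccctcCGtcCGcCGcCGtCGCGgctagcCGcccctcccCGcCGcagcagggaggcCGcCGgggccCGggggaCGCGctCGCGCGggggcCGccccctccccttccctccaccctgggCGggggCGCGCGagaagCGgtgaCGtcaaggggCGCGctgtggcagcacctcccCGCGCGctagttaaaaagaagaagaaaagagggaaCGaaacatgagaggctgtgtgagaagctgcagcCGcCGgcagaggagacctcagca
ANXA1: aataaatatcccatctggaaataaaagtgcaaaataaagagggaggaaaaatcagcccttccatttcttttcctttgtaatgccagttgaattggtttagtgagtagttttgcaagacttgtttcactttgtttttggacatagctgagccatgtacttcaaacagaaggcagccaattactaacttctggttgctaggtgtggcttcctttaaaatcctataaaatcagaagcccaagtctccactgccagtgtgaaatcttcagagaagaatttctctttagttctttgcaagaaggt
The windows held 25 CG dinucleotides in DIAPH2, 33 in PPP1R14A, 28 in ZNF329, 36 in HHIP and 0 in ANXA1. The observed over expected CG ratio, which is the number of CG dinucleotides against that given by the C and G content, was 0.81, 0.78, 1.21, 0.91 and 0.00. Of the 14 genes, 12 had a ratio of at least 0.6, the exceptions being ANXA1 and PLA2G4A (0.29), and 87.8% of 8531 expressed symbols with an entry did. The median was 0.80 for the 14 genes and 0.86 for all. The share with CG-rich promoters thus lay near that of expressed genes in general. The motif CACGTG, an E-box bound by MYC and MAX, was present on both strands alike in 1 of the 14 windows, that of DIAPH2, and in 10.8% of the expressed symbols' windows and 7.43% of all 27305 windows. The E-box CAGGTG, or its reverse complement CACCTG, was present in 1 window, that of ZNF177, and in 16.9% and 20.6%.

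The response to −Met+Hcy medium was tested in each line, and so was its difference between lines, by the quasi-likelihood test of edgeR, and p-values were adjusted over 17162 genes by the Benjamini-Hochberg method. A gene was called where the adjusted p was under 0.05 and the log2 fold change over 1 in size. The selection bears on this test: a gene had to be at least 4 times higher in HEK293T than in R1 in both media, and a gene that fell strongly in HEK293T in −Met+Hcy could less easily be chosen. The level of 5 CPM was also taken over both media, and 3 genes, NUPR1, ZNF329 and ADGRL3, reached it only through their HEK293T −Met+Hcy libraries, with +Met means of 0.627, 3.94 and 4.8 CPM. A higher level in −Met+Hcy was therefore built into the choice of these 3, and counts over the 18 genes are descriptions from which nothing is read about the set.

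In HEK293T, 4 of the 18 genes rose in −Met+Hcy, NUPR1, ZNF329, HHIP and SNAI2, and 0 fell by edgeR, against 3.04% of all genes tested that rose and 1.59% that fell. At an unadjusted p under 0.05, 6 were higher and 1 lower, against 12.9% and 9.49% of all genes, and without R1 −Met+Hcy replicate 3 these were 9 and 1, against 21.8% and 18.3%. DESeq2 called 0 lower, against 2.52%. NUPR1 rose by 4.15 on the log2 scale (SE 0.597, adjusted p = 0.00291), with all 3 −Met+Hcy libraries at 12.6 CPM or more and all 3 +Met libraries at 1.1 CPM or less. ZNF329 rose by 1.99 (SE 0.5, adjusted p = 0.0338), HHIP by 1.48 (SE 0.41, adjusted p = 0.0498) and SNAI2 by 1.43 (SE 0.388, adjusted p = 0.0462). Each of the 4 genes had its 3 −Met+Hcy libraries above its 3 +Met libraries. Of the 15 genes that reached 5 CPM in HEK293T +Met alone, 2 were called higher, HHIP and SNAI2.

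The calls of ZNF329, HHIP and SNAI2 depended on single libraries. Leaving out any 1 of the 6 HEK293T libraries or R1 +Met replicate 3 left NUPR1 as the only call, and leaving out R1 +Met replicate 1 left 2 calls; over the 12 omissions the adjusted p ran from 7.56e-05 to 0.145 for ZNF329, from 0.000926 to 0.167 for HHIP and from 2.34e-05 to 0.15 for SNAI2, while the log2 fold changes stayed between 1.90 and 2.09, 1.39 and 1.59, and 1.40 and 1.48. Without R1 −Met+Hcy replicate 3, 5 genes were called higher, NELL2 in addition, and 0 lower, against 6.76% and 3.56% of all genes. DESeq2 also called these 5, against 4.64% of all genes.

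MYC was higher in −Met+Hcy in HEK293T by 0.91 on the log2 scale (SE 0.155, adjusted p = 0.00616), under the fold limit, so that it was among the 5 genes with an adjusted p under 0.05 alone, where the shares over all genes were 4.25% higher and 2.78% lower, with 0 of the 18 lower. Its 3 −Met+Hcy libraries lay between 578 and 591 CPM. NELL2 had a log2 fold change of 1.11 (SE 0.352, adjusted p = 0.0827). PLA2G4A had the lowest value, -0.75 (SE 0.319, adjusted p = 0.186), and without R1 −Met+Hcy replicate 3 its adjusted p was 0.0296, under the fold limit.

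DIAPH2, PPP1R14A, ARMCX5, BEX5 and ZNF177 had log2 fold changes in HEK293T of 0.01 (SE 0.296), -0.29 (SE 0.392), 0.08 (SE 0.174), -0.08 (SE 0.298) and -0.12 (SE 0.304). Of the 18 genes 14 had a positive fold change and 4 a negative one, with a median of 0.59 against 0.03 over all genes tested and -0.02 over expressed symbols, of which 47.9% were positive. In CPM without TMM scaling the medians were 0.88 for the 18 genes and 0.31 for all genes, and 17 of the 18 were positive. Of the 15 genes at 5 CPM in +Met alone, 11 were positive and 4 negative with TMM scaling. By TMM-scaled CPM, the 3 −Met+Hcy libraries were all above the 3 +Met libraries for 10 of the 18 genes and all below for 1, against 25.6% and 25.8% of expressed symbols. The 10 include the 3 genes that entered through −Met+Hcy, and among the other 15 the counts were 7 and 1.

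**Figure D5:**
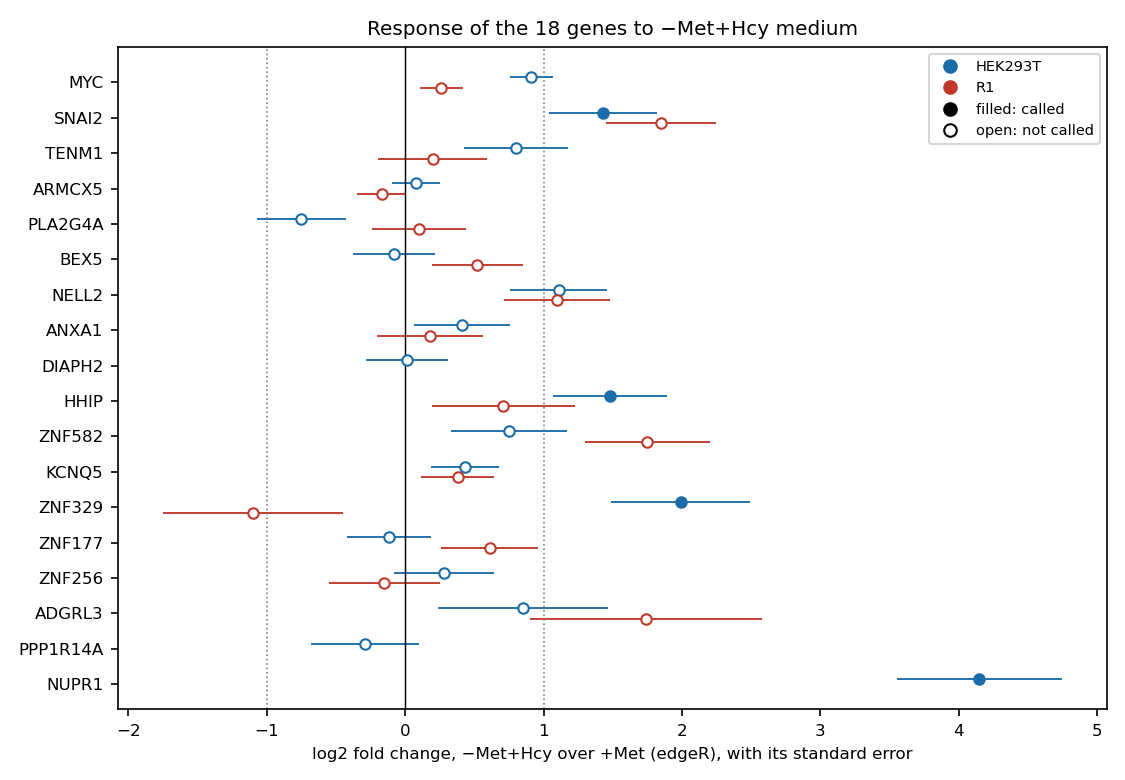
Log2 fold change of −Met+Hcy over +Met with its standard error for the 18 genes in HEK293T (blue) and R1 (red), from edgeR. Filled points were called and dotted lines mark 1 and -1. R1 values are not drawn for DIAPH2, PPP1R14A and NUPR1, which had at most 3 counts in R1 +Met. NUPR1 lies far to the right of the other genes, and ZNF329 has its 2 lines on opposite sides of 0.

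Of the 30 expressed amino acid response genes, 14 rose in HEK293T and 0 fell by edgeR, NUPR1 among those that rose, against 3.04% and 1.59% of all genes tested. Expressed genes were those with a mean of 5 CPM over both media, and NUPR1, JDP2 and VLDLR, all called, reached it only through −Met+Hcy. Of the 27 genes at 5 CPM in +Met alone, 11 rose and 0 fell. Without R1 −Met+Hcy replicate 3, 16 of the 30 and 13 of the 27 rose and 0 fell, against 6.76% and 3.56% of all genes. DESeq2 called 15 higher and 0 lower, and 0 were lower at an unadjusted p under 0.05. CHAC1, which degrades glutathione, rose by 4.68 (SE 0.503, adjusted p = 0.000537), SESN2, a restraint on mTORC1, by 2.73 (SE 0.275, adjusted p = 0.000502) and the transcription factor ATF3 by 2.45 (SE 0.285, adjusted p = 0.000958). ATF4 itself, which drives many of these genes, had 0.34 (SE 0.172, adjusted p = 0.265). Without that replicate the adjusted p in edgeR was 4.51e-08 for CHAC1, 1.82e-06 for SESN2, 3.51e-05 for ATF3 and 0.0904 for ATF4, with the same fold changes. Of the 394 expressed zinc finger genes, 46 rose and 0 fell by edgeR, against the same 3.04% and 1.59%. At an unadjusted p under 0.05 in edgeR, 9 were lower, against 9.49% of all genes. DESeq2 called 57 higher and 1 lower, against 4.64% and 2.52%. The shares in this paragraph cover all genes tested, including those under 5 CPM. No share of calls was taken over expressed symbols alone. Of the 359 that reached 5 CPM in +Met alone, 37 rose and 0 fell. With that replicate left out, 64 of the 394 rose, among them the same 46, and 2 fell, ZNF594 and ZNF692, with 49 and 2 among the 359. ZNF329, which did not, was the only one of the 4 selected here that was called.

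In R1, 0 of the 18 genes were called by edgeR in either direction, against 0.00583% of all genes called higher and 0 lower. At an unadjusted p under 0.05, 4 were higher (SNAI2, NELL2, ZNF582 and NUPR1) and 1 lower (DIAPH2, on 3 counts in +Met and 0 in −Met+Hcy), against 5.68% and 2.11% of all genes. Without R1 −Met+Hcy replicate 3, 3 were higher (SNAI2, ZNF582 and NUPR1) and 0 lower, against 4.49% and 2.57%. DESeq2 called 1 gene, SNAI2 (log2 fold change 1.86, adjusted p = 0.00823), against 0.158% of all genes higher and 0.019% lower. In edgeR SNAI2 had 1.85 (SE 0.399, adjusted p = 0.622), and without R1 −Met+Hcy replicate 3, whose SNAI2 value was the highest of the line, 1.00 (SE 0.145, adjusted p = 0.0643). Without that replicate edgeR called 0 of the 18 genes, against 0.0176% of all genes higher. Each SNAI2 value in −Met+Hcy was above the 3 +Met values, with that replicate and without it.

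The other genes with a large fitted value in R1 had few counts or rested on that replicate. ZNF582 had 1.75 (SE 0.453, adjusted p = 0.622), with 65, 36 and 165 counts in −Met+Hcy against 31, 30 and 21 in +Met. Without replicate 3 its value was 1.01 (SE 0.331, adjusted p = 0.556). NUPR1 had 30 counts over 3 libraries in −Met+Hcy against 1 in +Met, a ratio of 30.4 with a 95% counting interval of 5.06 to 1241, and 20.1 (2.97 to 858) without replicate 3. By TMM-scaled CPM 4 of the 18 genes had their R1 −Met+Hcy libraries all above the +Met libraries and 0 all below, against 5.33% and 5.22% of expressed symbols. The 4 were MYC, SNAI2, ZNF582 and NUPR1. MYC had 60, 69.3 and 60.8 CPM in R1 −Met+Hcy against 56.7, 55.5 and 52.1 CPM in +Met, with a log2 fold change of 0.26 (SE 0.155, adjusted p = 0.642).

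The response of R1 minus that of HEK293T was tested as an interaction term. By edgeR 0 of the 18 genes were called, against 0 of all genes higher and 0.0583% lower. At an unadjusted p under 0.05, 0 were higher and 3 lower (MYC, DIAPH2 and ZNF329), against 4.62% and 5.05% of all genes. The value of DIAPH2 rests on 3 counts in R1 +Met and 0 in R1 −Met+Hcy, and nothing is read from it. ZNF329 is 1 of the 3 genes that reached 5 CPM only through HEK293T −Met+Hcy, which by itself favours a larger response in HEK293T, so its difference is given as a description. Without R1 −Met+Hcy replicate 3, 1 gene was higher (PLA2G4A) and 4 were lower (MYC, SNAI2, HHIP and ZNF329) at an unadjusted p under 0.05, against 7.29% and 9.27% of all genes. The fitted difference of ZNF329 was -3.09 (SE 0.816), -3.11 in DESeq2 and -2.50 (SE 0.454) in edgeR without R1 −Met+Hcy replicate 3. Both alternatives called it lower, where 0.757% and 1.08% of all genes were called lower and 0.349% and 0.305% higher, and nothing is read from these calls. Its R1 counts were few. ZNF329 had 240, 332 and 316 counts in HEK293T −Met+Hcy against 64, 64 and 56 in +Met, and in R1 it had 5, 10 and 0 against 10, 18 and 7. MYC had a difference of -0.65 (SE 0.219, adjusted p = 0.371) and SNAI2 one of 0.42 (SE 0.543, adjusted p = 0.838). The SNAI2 difference turned to -0.44 without that replicate (SE 0.192, adjusted p = 0.282), and that of MYC was -0.71 (SE 0.188, adjusted p = 0.0785). For the remaining genes no difference in response between the lines passed the adjusted threshold, which does not show that the lines responded alike.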

How the data were processed

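RNA was sequenced from HEK293T and R1 cells kept for 12 h in either medium (4 groups of 3 libraries). The deposited table holds the authors' estimated counts from kallisto 0.48.0 (GRCh38), at the level of Ensembl genes and without decimals. No library totals other than the column sums (12664158 to 18771349) were used, and entries without a symbol held 0.346% to 0.402% of the counts.

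The 18 genes were chosen from CPM as described in the opening, and the genes, families and lists were chosen with earlier results of these data known. The rule for named genes took the members by level, by ratio and by call, and those next to each limit or in a list; the other members, the relatives, neighbours and further list genes were named after their values were seen.

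Genes with a summed count of at least 10 (17162 of 23500; 6338 were excluded) were tested in edgeR 4.0.16 (R 4.3.3) with TMM scaling, 1 model over 4 groups, and quasi-likelihood tests of the medium in each line and of the interaction, with Benjamini-Hochberg adjustment. DESeq2 1.42.0, relative log expression scaling, other filters, a replicate block and leaving out each library were alternatives. Counts were simulated over 17162 genes with known changes in HEK293T. The test called 96 of 100 genes changed by 1.5 on the log2 scale and 100 of 100 changed by 2.5, with 6 false calls. The simulated spread was estimated without R1 −Met+Hcy replicate 3. In the data the common dispersion was 0.0349 without that library and 0.109 with it. The changed genes were drawn only from those with higher counts. The simulation therefore does not show how often the main test would call such genes. Intervals of ratios of counts are exact at 95%, and intervals and floors cover counting error only.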

Additional observations from a re-analysis of the deposited data

How the results depend on the processing

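The number of genes called higher in −Met+Hcy in HEK293T was 4 and ranged from 1 to 5 when single libraries were left out. It was 3 with relative log expression scaling, 3 without a filter, 4 with edgeR's own filter and 5 with DESeq2; NUPR1 was called under each of these. The deviations of libraries with the same replicate number correlated between -0.504 and 0.484. Libraries with different numbers were not compared, so these values cannot decide whether the numbers pair the samples. A fit with the replicate number as a block called 1 gene. In R1 no library omission gave a call, and DESeq2 gave 1. For the difference between lines the count of genes called lower was 1 with DESeq2 (ZNF329, which entered through HEK293T −Met+Hcy) and ranged from 0 to 1 over the omissions. The median difference, -0.03, ranged from -0.33 to 0.17 over the omissions and turned positive in 5 of them (0.03, 0.05, 0.07, 0.10 and 0.17), so its sign is not stable; the cause was not tested.

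The number of genes selected was 18. It was 6 with a limit on the ratio 2 times stricter, 131 at a limit of 50%, 51 at a minimum of 1 CPM, 14 at a minimum of 10 CPM, 25 with TMM-scaled CPM, 19 with R1 −Met+Hcy replicate 3 included and 17 to 21 when single libraries were left out. No gene was next to another of the set, and 4 had a start within 1 Mb of another. Depth limits DIAPH2, PPP1R14A and NUPR1, whose R1 levels lie at or near the floor of 3 counts.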

Other observations

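SLC7A3, which encodes a carrier of cationic amino acids and was left out of the selection by its name, met the same limits, with 9.57 CPM in HEK293T +Met, 18.7 CPM in HEK293T −Met+Hcy, 0.0263 CPM in R1 +Met and 0 CPM in the 2 R1 −Met+Hcy libraries used.

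TEX14, a testis-expressed gene of the germline list, had 29.2 CPM in HEK293T and 13.2 CPM in R1, and it rose in HEK293T in −Met+Hcy by 2.62 on the log2 scale (SE 0.242, adjusted p = 0.000309 in edgeR's quasi-likelihood test). Among the relatives, E-cadherin (CDH1), the best-known target that SNAI2 represses, was low in both lines. Over both media it had 1.45 CPM in HEK293T and 2.72 CPM in R1. By medium, HEK293T averaged 0.315 CPM in +Met, near the floor of 3 counts, and 2.59 CPM in −Met+Hcy. R1 averaged 1.98 CPM in +Met. CDH1 rose in HEK293T in −Met+Hcy by 2.70 (SE 0.557, adjusted p = 0.0145 in the same edgeR test), in the same comparison in which SNAI2 rose. Vimentin (VIM) fell by 1.35 in that comparison (SE 0.201, adjusted p = 0.00323). Without R1 −Met+Hcy replicate 3 the adjusted p in edgeR was 1.02e-05 for TEX14, 0.000789 for CDH1 and 0.000241 for VIM.

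Chromosome 6, which held KCNQ5, had the second lowest median log2 ratio of R1 over HEK293T of the chromosomes with a gene of the set, -0.26, after chromosome 19 at -0.33.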
